A study of Mus musculus with 20 samples.

Results

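The circadian clock genes described here are the activators Bmal1 (Arntl in the array annotation) and Clock, the repressors Per1, Per2, Per3, Cry1, Cry2 and Nr1d1, and the output factors Dbp and Tef. These 10 genes, out of 18193 genes with a probe set of a single symbol, were each read from the probe set with the highest mean log2 intensity over all arrays. RNA from visceral fat, the fat around the abdominal organs, was measured in 20 female C57BL/6J mice, 1 Affymetrix array a mouse, with 5 mice in each of 4 groups. The study counts gonadal and mesenteric fat as visceral, and its figure legend for the arrays names mesenteric fat. The control non pregnant and control pregnant mice were fed a low fat diet (10% fat), and the HF non pregnant and HF pregnant mice a high fat diet (58% fat). In the study's methods the fat of the diets is given as a percentage of kcal. Pregnant mice were killed late in gestation, at E18.5 (E for embryonic day), which the labels also give for the non pregnant mice. Per the study's methods the mice came from different litters and were killed in the morning, and the visible lymph nodes were cut out of the fat. The hour at which each mouse was killed is not given in the sources used here, so a difference in hour and a difference between mice or groups cannot be told apart. Intensities are RMA values (robust multi-array average, which corrects the background, equalizes the arrays and sums the probes of a set), and all levels below are log2 of them, so that 1 unit is a doubling; each probe set has its own scale, so levels were compared between mice and not between genes. The 6 measured adipocyte marker genes, among them Adipoq and Fabp4, passed the filter on low values. In bulk tissue a lower level can come from fewer cells of a type or from less RNA per cell, and the arrays cannot tell these apart.

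The clock of mammalian cells is a loop of transcription and translation. BMAL1 and CLOCK bind as a pair to E-boxes and switch on the Per and Cry genes, whose proteins return to the nucleus and shut that pair down. In a second arm the nuclear receptor REV-ERBα, encoded by Nr1d1, represses Bmal1 through ROR elements, and the factors DBP, TEF and HLF act through D-boxes, where the repressor encoded by Nfil3 competes with them. In adipose tissue, as in liver, transcripts of Bmal1 and of Dbp, Per3 and Nr1d1 are known to peak at nearly opposite times of day, and the fat clock is known to respond to the time of feeding.

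The elements through which these genes regulate each other were looked for in RefSeq promoter windows (GRCm38.p6), from 250 bases before to 50 bases after each start, on both strands. Of the 10 genes, 9 had windows, 14 in all, and Per2 had none. The E-box (CACGTG) lay in 4 of the 14 windows, 1 of Per1, 1 of Cry1 and 2 of Tef, against 7.15% of all 32851 windows. The related box CACGTT lay in 3 of the 14, of Cry1, Cry2 and Nr1d1, against 4.68%. The D-box (TTATGTAA or TTACGTAA) lay in 1 of the 14, of Per3, which holds 2 copies, against 1.06%. The core of the ROR element (TAGGTCA or TGGGTCA) lay in 1 of the 14, 1 of the windows of Bmal1, against 6.45%. No searched motif overlapped another in these windows, and the windows of Dbp and Clock held none of these letters. The upstream 250 bases are printed for the 4 genes whose levels ran opposite to Bmal1 in the arrays (Tef by 1 of its 2 windows, both of which hold an E-box), and for Bmal1 a short stretch of the transcribed part around its ROR core, with the motifs in capitals.
Per3, chr4:151044666-151044915, minus strand: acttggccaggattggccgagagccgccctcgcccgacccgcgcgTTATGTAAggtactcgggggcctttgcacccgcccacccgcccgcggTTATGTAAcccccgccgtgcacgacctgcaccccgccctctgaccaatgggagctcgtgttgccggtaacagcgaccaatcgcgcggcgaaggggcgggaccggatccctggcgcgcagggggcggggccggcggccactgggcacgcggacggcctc
Tef, chr15:81811164-81811413, plus strand: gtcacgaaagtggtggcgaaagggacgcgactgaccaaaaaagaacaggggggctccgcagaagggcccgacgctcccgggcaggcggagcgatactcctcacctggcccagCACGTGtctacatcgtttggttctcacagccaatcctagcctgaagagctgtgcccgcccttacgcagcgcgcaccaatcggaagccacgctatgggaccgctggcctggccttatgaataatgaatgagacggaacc
Nr1d1, chr11:98775378-98775627, minus strand: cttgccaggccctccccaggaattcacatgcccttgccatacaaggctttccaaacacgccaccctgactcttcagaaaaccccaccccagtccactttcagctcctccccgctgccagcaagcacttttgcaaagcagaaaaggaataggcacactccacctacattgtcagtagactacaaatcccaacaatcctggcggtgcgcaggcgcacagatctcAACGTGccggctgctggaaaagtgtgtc
Dbp, chr7:45704997-45705246, plus strand: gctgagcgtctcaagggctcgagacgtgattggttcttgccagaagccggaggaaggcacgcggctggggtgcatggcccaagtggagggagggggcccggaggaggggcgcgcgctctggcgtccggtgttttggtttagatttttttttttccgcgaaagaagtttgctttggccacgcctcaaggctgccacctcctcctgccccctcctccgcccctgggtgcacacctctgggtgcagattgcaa
Bmal1, chr7:113207532-113207556, plus strand: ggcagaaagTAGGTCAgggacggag

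No clock gene passed the test for a difference between the groups. Of the 10 genes, 0 were called in any of 7 comparisons by limma with Benjamini-Hochberg adjustment over 19802 kept probe sets at a threshold of 0.05. The whole array gave few calls in the same fit: 0.0252% of probe sets in HF pregnant vs HF non pregnant, 0% in control pregnant vs control non pregnant, 0.192% in HF pregnant vs control pregnant, 0% in HF non pregnant vs control non pregnant, 0% for the interaction of diet and pregnancy, 1.24% for HF vs control averaged over pregnancy and 0.0101% for pregnant vs non pregnant averaged over diet. At an unadjusted p under 0.05 the clock genes gave 0, 1, 0, 2, 0, 2 and 0 in these comparisons, in the same order, where 923, 575, 2542, 3500, 610, 5866 and 908 of the 19802 probe sets did. The groups of 5 mice overlapped for all 10 genes in all 4 comparisons of groups, where 1.53%, 0.217%, 3.51% and 2.19% of probe sets, in the order above, did not overlap.

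**Figure D1:**
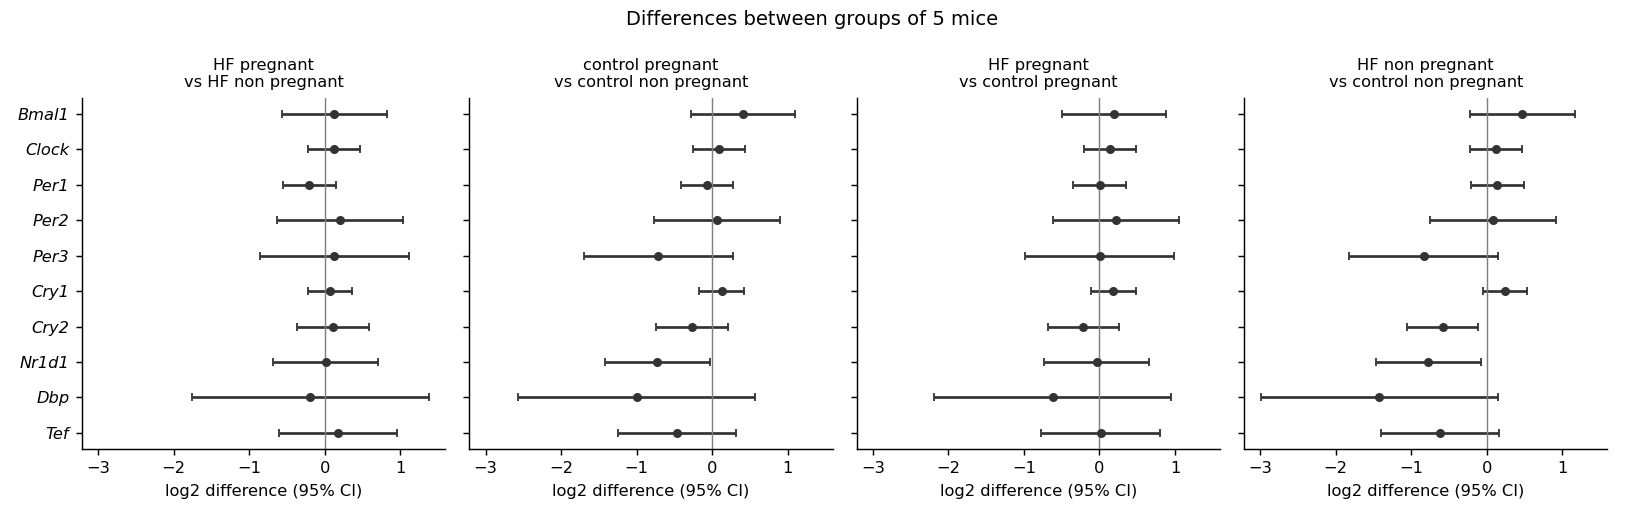
Log2 differences of the 10 clock genes (points) with 95% confidence intervals from limma (bars) in the 4 comparisons of groups of 5 mice; the vertical line marks 0. The intervals of Cry2 and Nr1d1 leave out 0 in HF non pregnant vs control non pregnant, as does that of Nr1d1 in control pregnant vs control non pregnant, before adjustment, and that of Dbp spans from -3.00 to 0.15.

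With all 20 mice in the fit, the largest difference and the lowest p-values of the 4 comparisons of groups lay between the diets in non pregnant mice, among output and repressor genes. Cry2, a repressor of the BMAL1 and CLOCK pair, read 8.09, 7.66, 8.03, 8.21 and 7.77 in control non pregnant mice 1 to 5 and 7.15, 7.68, 7.41, 7.85 and 6.74 in HF non pregnant mice. Of the HF mice, 3 lay below the lowest control mouse and 2 within the control range. The difference was -0.59 (SE 0.23, limma adjusted p = 0.281), with p = 0.0397 by a two-sided exact permutation test, which with 5 against 5 mice can give no p below 0.00794. In pregnant mice Cry2 differed between the diets by -0.21 (SE 0.23, limma adjusted p = 0.656), and averaged over pregnancy by -0.40 (SE 0.16, limma adjusted p = 0.127). Cry1, its paralog, was the other gene at an unadjusted p under 0.05 for the averaged diet difference, at 0.21 (SE 0.10, limma adjusted p = 0.162), with the opposite sign to Cry2. In that comparison 29.6% of all probe sets reached such a p, a larger share than the 2 of 10 clock genes.

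Nr1d1 read 8.50, 7.18, 7.06, 7.94 and 7.21 in control non pregnant mice and 6.09, 6.96, 6.76, 8.02 and 6.19 in HF non pregnant mice. The lowest control mouse lay above 4 of the 5 HF mice, and HF non pregnant mouse 4 lay among the highest controls. The difference was -0.78 (SE 0.33, limma adjusted p = 0.281; exact permutation p = 0.0952). Control pregnant mice read 7.53, 6.73, 6.86, 6.36 and 6.78, a difference of -0.73 (SE 0.33, limma adjusted p = 0.963) from control non pregnant mice, and HF pregnant mice read 6.85, 7.05, 6.91, 6.38 and 6.88.

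The differences of the other genes in HF non pregnant vs control non pregnant mice ran from -1.42 for Dbp (SE 0.75, limma adjusted p = 0.282), through -0.83 for Per3 (SE 0.47) and -0.62 for Tef (SE 0.37), to 0.47 for Bmal1 (SE 0.33), each with a limma adjusted p over 0.05. In HF pregnant vs HF non pregnant mice they ran from -0.21 for Per1 to 0.20 for Per2, and the 95% interval for Dbp reached from -1.76 to 1.38, so that a doubling and a halving both lay inside it. The median difference of the 10 genes was -0.25 in HF non pregnant vs control non pregnant and 0.11 in HF pregnant vs HF non pregnant.

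Much of the spread within the non pregnant groups came from 3 mice, control non pregnant mice 1 and 4 and HF non pregnant mouse 4. Dbp, a clock output factor that binds D-boxes, read 12.22, 8.69, 9.31, 12.16 and 10.53 in control non pregnant mice and 7.74, 8.56, 8.50, 12.12 and 8.87 in HF non pregnant mice. It read 10.37, 8.65, 10.55, 9.10 and 9.26 in control pregnant and 9.29, 9.14, 9.04, 9.08 and 8.28 in HF pregnant mice. The highest of the other 17 mice, at 10.55, lay well below the lowest of these 3, at 12.12. The 3 mice had 2 different diets, and the groups hold them in unequal number, 2 in control non pregnant and 1 in HF non pregnant. They were noted from the values and are no group of the study; their levels are given mouse by mouse, and the differences between groups were also fitted without them.

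**Figure D2:**
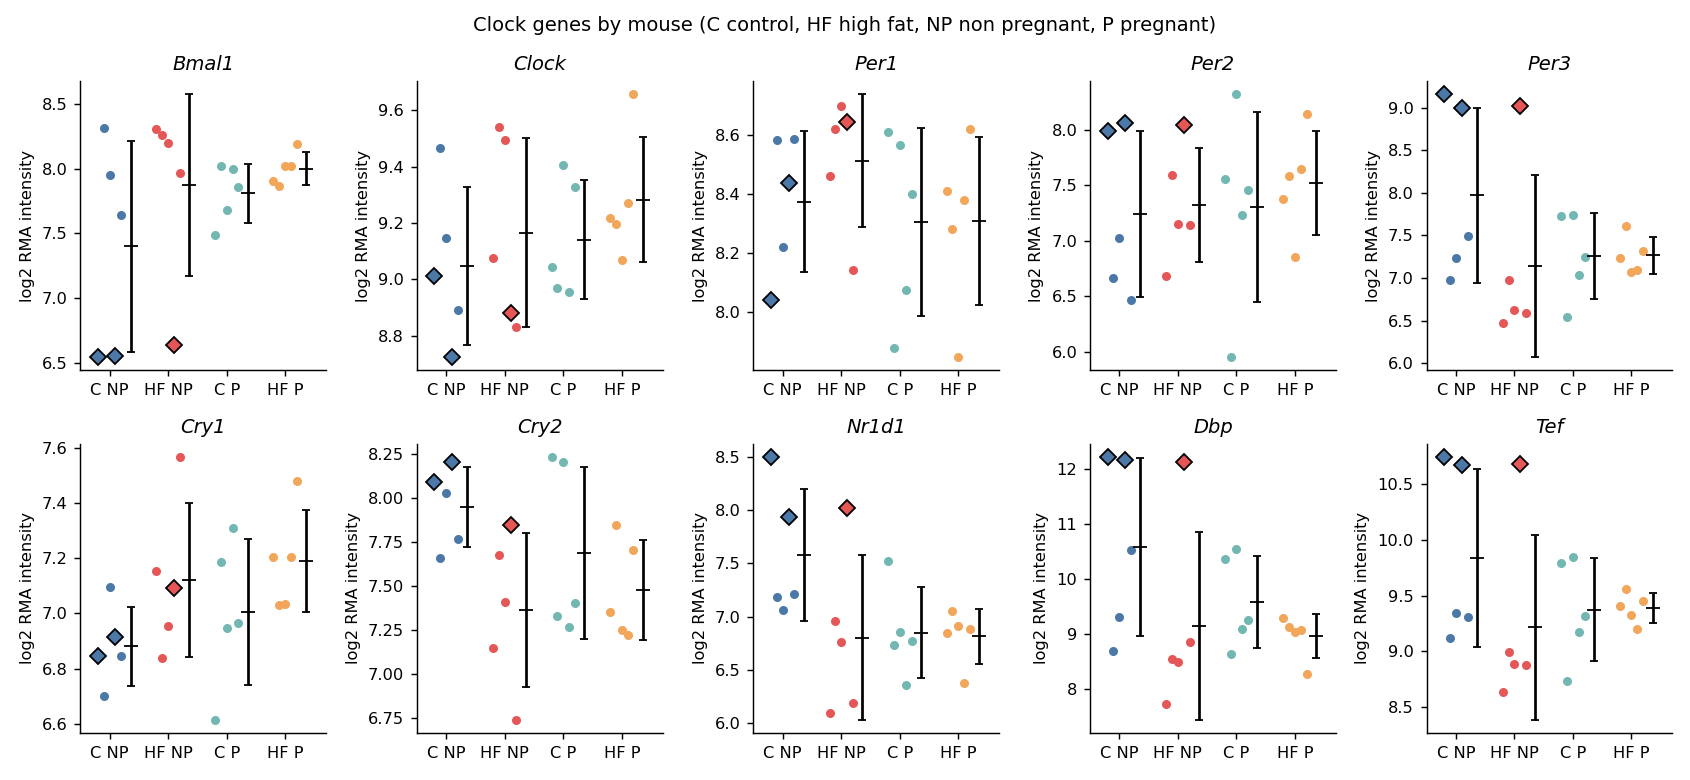
Log2 RMA intensity of each clock gene in every mouse (points) by group, with the group mean ± SD (n = 5) to the right of the points; diamonds mark control non pregnant mice 1 and 4 and HF non pregnant mouse 4. The diamonds lie above all other mice for Per3, Nr1d1, Dbp and Tef and below all others for Bmal1, and lie among the others for Per1, Per2, Cry1 and Cry2.

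Bmal1, the activator, was low in the same 3 mice. It read 6.55, 8.31, 7.95, 6.55 and 7.64 in control non pregnant and 8.30, 8.26, 8.19, 6.64 and 7.97 in HF non pregnant mice. It read 7.49, 8.02, 7.68, 7.9997 and 7.86 in control pregnant and 7.91, 7.86, 8.02, 8.02 and 8.19 in HF pregnant mice. The pregnant groups were tight, at 7.81 ± 0.23 and 8.0 ± 0.13 (SD, n = 5), against 7.40 ± 0.81 and 7.87 ± 0.70 in the non pregnant groups.

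Per3, a Period family member, read 9.16, 6.98, 7.23, 8.995 and 7.49 in control non pregnant mice and 6.48, 6.98, 6.62, 9.01 and 6.60 in HF non pregnant mice. The highest of the other 17 mice, a control pregnant mouse, read 7.74. Tef, a relative of Dbp, read 10.75, 9.12, 9.35, 10.67 and 9.30 in control non pregnant mice and 8.63, 8.9955, 8.89, 10.68 and 8.88 in HF non pregnant mice. The pregnant mice read from 8.74 to 9.85 for Tef, so the same 3 mice stood above all others. Nr1d1 at 8.50, 7.94 and 8.02 in these mice was also above the other 17, whose highest was 7.53.

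The remaining clock genes did not set the 3 mice apart from all 17 others. Per2 was at 7.99, 8.06 and 8.04 in them, within the range of 5.95 to 8.32 in the other mice, and Cry2 at 8.09, 8.21 and 7.85 within 6.74 to 8.23. Within their own groups, though, these mice were the highest for both genes. The next highest Per2 was 7.02 in control non pregnant and 7.59 in HF non pregnant mice. For Cry2 the next highest was closer, at 8.03 and 7.68. Per1, which is also known to respond quickly to hormones, was at 8.04, 8.44 and 8.64 within 7.85 to 8.70, and Cry1 at 6.84, 6.91 and 7.09 within 6.61 to 7.57. Clock, the partner of BMAL1, was at 9.01, 8.72 and 8.88 against 8.83 to 9.66, with the lowest level of all mice in control non pregnant mouse 4.

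The spread between mice of the same group was large for the same genes. The SD within groups was 1.26 for Dbp, higher than 99.0% of kept probe sets, 0.79 for Per3 (95.8%), 0.67 for Per2 (93.7%), 0.63 for Tef (92.6%), 0.55 for Nr1d1 (89.9%) and 0.55 for Bmal1 (89.8%). Cry2 at 0.38, Per1 and Clock at 0.27 and Cry1 at 0.22 were closer to the median of 0.23 over all kept probe sets, and the median of the 10 clock genes was 0.55. The clock genes' median SD was 0.67 in the non pregnant groups and 0.35 in the pregnant groups, where all kept probe sets had 0.22 and 0.23. Bmal1 went from an SD of 0.76 to 0.18, Dbp from 1.66 to 0.65 and Per3 from 1.05 to 0.39. Without the 3 mice the SD in the other 7 non pregnant mice was 0.24 for Bmal1, 0.70 for Dbp and 0.23 for Per3, and the clock genes' median was 0.30. The 3 mice were noted for their extreme values in these 3 genes, so a smaller SD without them follows from that choice. These SDs are a description and the difference between pregnant and non pregnant mice was not tested.

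**Figure D3:**
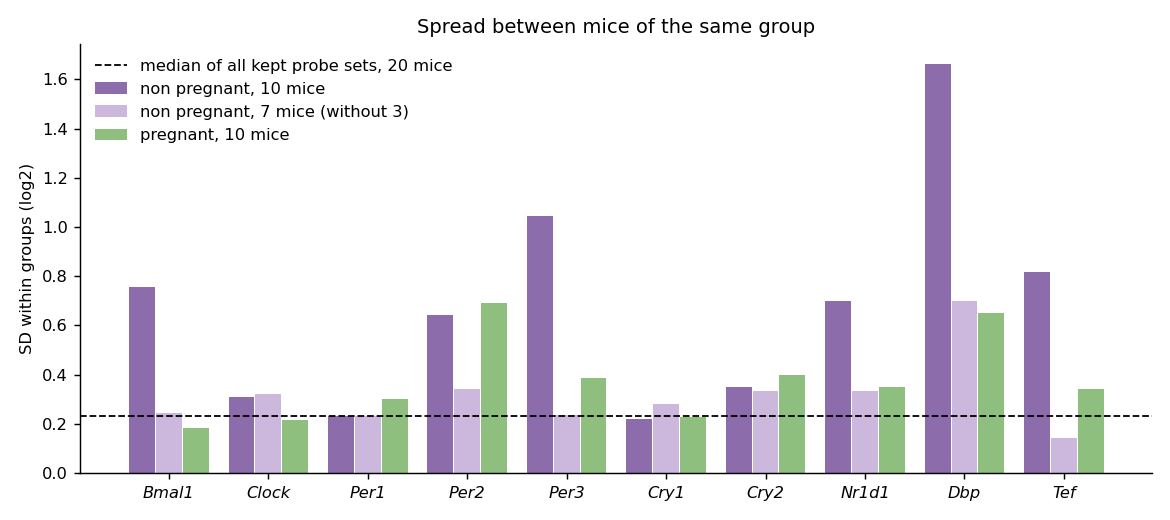
SD within groups of each clock gene on the log2 scale in the 10 non pregnant mice, in the 7 that remain without the 3 mice that stand apart, and in the 10 pregnant mice; the dashed line is the median SD of all kept probe sets, 0.23. The tall bars of Bmal1, Per3, Nr1d1, Dbp and Tef belong to the 10 non pregnant mice, and those of Per2 are high in pregnant mice too, at 0.69.

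Mice of the same group with more Bmal1 had less Dbp, Per3, Tef and Nr1d1. To ask which genes varied with Bmal1 between mice of the same group, the level of Bmal1 was added to the 4 group means in limma. Of 19800 probe sets 47 (0.237%) were called, 29 with a positive and 18 with a negative slope, and among the 9 other clock genes 4 were called. Dbp fell by 2.22 per unit of Bmal1 (SE 0.14, adjusted p = 1.4e-07), Per3 by 1.36 (SE 0.11, adjusted p = 3.71e-06), Tef by 1.07 (SE 0.10, adjusted p = 1.26e-05) and Nr1d1 by 0.82 (SE 0.14, adjusted p = 0.0141). The clock genes that did not pass had slopes of -0.76 (Per2, adjusted p = 0.319), -0.34 (Cry2, 0.523), 0.26 (Clock, 0.498), 0.04 (Cry1, 0.917) and 0.01 (Per1, 0.980). Over all 20 mice their deviations from the group means had r = -0.63 for Per2 (p = 0.00593 by permutation within groups). By the same test r was -0.49 for Cry2 (permutation p = 0.0182) and 0.53 for Clock (permutation p = 0.0488). Cry1 and Per1 had a permutation p over 0.05. These permutation p-values are not adjusted over the array. Of the 4 called genes, Nr1d1 lost its call without control non pregnant mouse 1 (adjusted p = 0.0851) and without HF non pregnant mouse 4 (adjusted p = 0.528).

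Only the relation of Dbp with Bmal1 was called without the 3 mice. In the other 17 mice Dbp fell by 2.93 per unit of Bmal1 (SE 0.37, limma adjusted p = 0.0298), and its probe set was the 1 called of all tested. Over these 17 mice the deviations from the group means had r = -0.91 (Spearman rho = -0.91; permutation p = 0.00023 and 0.00019 over 100000 permutations within groups, 1 of 14 relations computed), and r = -0.85 without the 2 mice farthest from the median of Bmal1. The next highest Dbp, at 10.37, 10.55 and 10.53, lay in mice on the control diet, control pregnant mice 1 and 3 and control non pregnant mouse 5, which read 7.49, 7.68 and 7.64 for Bmal1. The second kept probe set of Dbp followed the first with r = 0.99 over 20 arrays and had r = -0.89 with Bmal1 in the 17 mice. The second kept probe set of Bmal1, above 100 on 6 arrays, followed the first less closely. Their deviations from the group means had r = 0.77 over 20 mice and r = 0.30 in the 17 mice. The relation with Dbp in the 17 mice was computed with the first Bmal1 probe set only. No other kept probe set had a lower r with Bmal1 over these mice than the Dbp probe set.

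Per3 and Tef kept the sign of their slopes in the 17 mice but not the call. Per3 had a slope of -1.08 (SE 0.34, limma adjusted p = 0.591) with r = -0.67 (rho = -0.66; permutation p = 0.0122), and 0.884% of kept probe sets had a lower r. The other kept probe sets of Per3 had a weaker r in these mice, at -0.58 and -0.41. Tef had a slope of -0.85 (SE 0.30, limma adjusted p = 0.591) with r = -0.63 (rho = -0.65; permutation p = 0.0132). Nr1d1 had a slope of -0.58 (SE 0.42, limma adjusted p = 0.743) with r = -0.35 (rho = -0.35; permutation p = 0.179), and r = -0.04 without the 2 farthest mice. Clock (r = 0.43), Cry1 (0.19), Per1 (-0.17), Per2 (-0.23) and Cry2 (-0.33) each had a permutation p over 0.05.

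**Figure D4:**
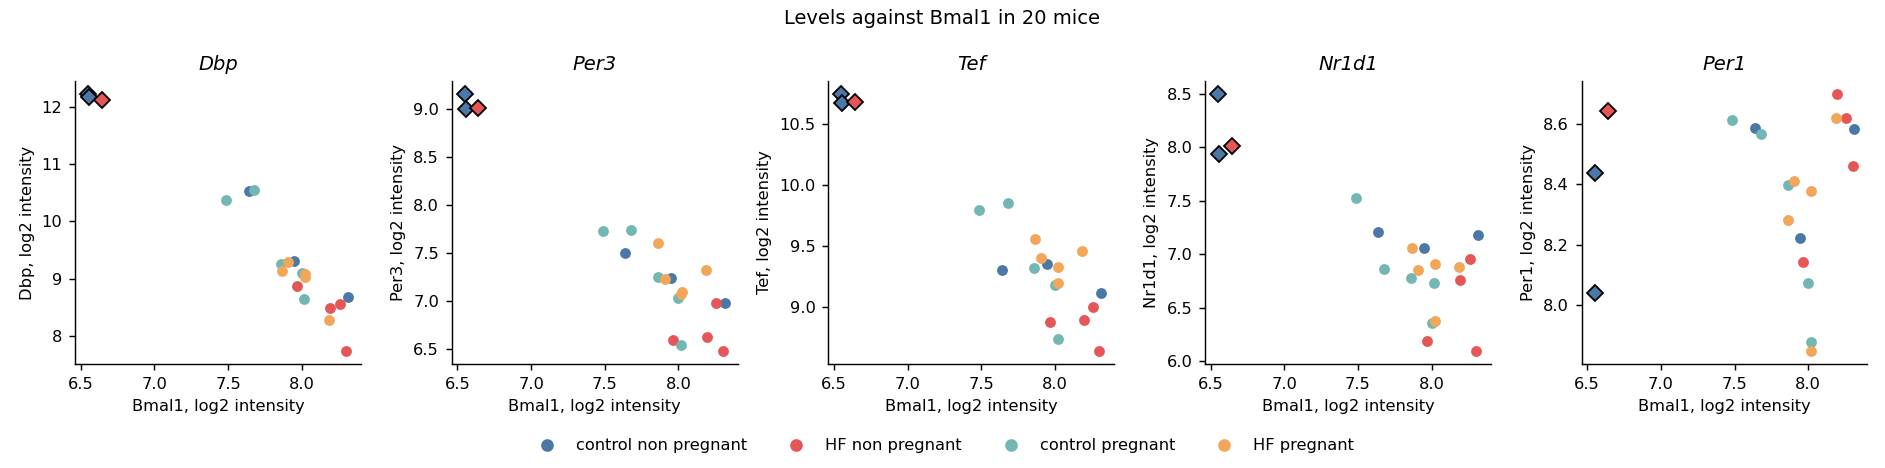
Log2 intensity of Dbp, Per3, Tef, Nr1d1 and Per1 (vertical axes) against that of Bmal1 (horizontal axes), 1 point a mouse, coloured by group; diamonds mark control non pregnant mice 1 and 4 and HF non pregnant mouse 4. The diamonds sit at the top left for the first 4 genes, the Dbp panel also falls among the other 17 mice (r = -0.91), and Per1 had a slope of 0.01.

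The wider clock list holds 20 further genes, of which 18 had a probe set and 11 passed the filter; 0 of the 11 were called in any of the 7 comparisons, where the smallest limma adjusted p was 0.0954, for Timeless in HF vs control averaged over pregnancy (0.42, SE 0.14). In the association with Bmal1 3 of 11 were called, against 0.237% of all probe sets. Nr1d2, which encodes the second REV-ERB receptor, fell by 0.998 per unit of Bmal1 (SE 0.10, adjusted p = 5.58e-05) and Hlf, the third D-box activator, by 1.19 (SE 0.15, adjusted p = 0.000492). Nfil3, whose protein competes with them at D-boxes, rose by 0.86 (SE 0.15, adjusted p = 0.0129).

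In the 3 mice, which are low in Bmal1, these genes lay outside the range of the others. Nr1d2 read 12.15, 11.90 and 11.84 in them and at most 10.83 in the others, Hlf 8.34, 8.86 and 8.64 against at most 7.33, and Nfil3 6.00, 5.55 and 6.36 against at least 6.70. Npas2, a relative of Clock, read 3.98, 3.86 and 4.16 against at least 4.58, and Ciart, a repressor of the BMAL1 and CLOCK pair, 6.20, 6.86 and 6.93 against at most 6.17; both lay under the filter on low values and were not in the test. In the 17 mice Hlf had a slope of -0.02 (SE 0.31, limma adjusted p = 0.994), while Nr1d2 had -0.62 (SE 0.31, adjusted p = 0.650) and Nfil3 1.005 (SE 0.44, adjusted p = 0.623). For Hlf this depended on the probe set: r with Bmal1 in the 17 mice was -0.02 for the first and -0.36 for the second kept probe set.

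Genes outside both lists that followed Bmal1 most closely were ranked by r of the deviations over 20 mice, a rank that the 3 mice weigh on. The 5 most alike were Dtx4 (r = 0.72 in the 17 mice), Aldh3b1 (0.42), Zbtb21 (0.47), Cebpd (0.71) and Magt1 (0.33), and the 5 most opposed were Slc6a6 (-0.62), Rsad1 (-0.53), Xpa (-0.36), Lonrf1 (0.41) and Uri1 (-0.16). Lonrf1 thus turned its sign without the 3 mice. In the limma association Dtx4 rose by 0.60 per unit of Bmal1 (adjusted p = 5.58e-05) and Cebpd, a transcription factor of adipocyte differentiation, by 0.66 (adjusted p = 0.00265), while Slc6a6, the taurine transporter, fell by 0.75 (adjusted p = 4.11e-05). Zbtb21 (adjusted p = 0.0812) and Uri1 (0.110) did not pass.

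Glucocorticoid-responsive genes moved with Bmal1 in part. Of the 8 genes in this list 2 were called, Tsc22d3 with a slope of 0.61 (SE 0.10, limma adjusted p = 0.00603) and Sgk1 with 0.42 (SE 0.07, limma adjusted p = 0.0110), against 0.237% of all probe sets. Of the 8 slopes 7 were positive, with a median of 0.40. Neither Tsc22d3 nor Sgk1 was called in this association in the other 17 mice, where the slope was 0.18 for Tsc22d3 (SE 0.24, limma adjusted p = 0.872; r = 0.21) and 0.10 for Sgk1 (SE 0.21, limma adjusted p = 0.927). In the 17 mice Tsc22d3 was called lower in HF pregnant vs HF non pregnant (-0.75, SE 0.12, limma adjusted p = 0.0439), where 7 probe sets were called in all. With all 20 mice that difference was -0.49 (SE 0.24, limma adjusted p = 0.9999). The 3 mice left out were the lowest of all in Tsc22d3. Leaving them out thus raises the HF non pregnant mean and lowers the SE by selection, and no conclusion is drawn from this call. Ddit4, an inhibitor of mTORC1 signalling, had a slope of 0.69 over all 20 mice (SE 0.17, limma adjusted p = 0.156). Tsc22d3 read 10.12, 10.51 and 10.34 in the 3 mice and from 10.57 to 11.78 in the others, and Sgk1 9.47, 9.55 and 9.69 against 10.06 to 10.61. The mean log2 deviation of the list was -0.50, -0.61 and -0.33 in them and from -0.48 to 0.62 in the others. That of 6 immediate early genes, which respond to handling and to stimuli within minutes, was the lowest of all mice in these 3, at -0.45, -0.30 and -0.25 against at least -0.16, though 0 of the 6 were called in the association (limma; 0 at an unadjusted p under 0.05). Between the diets, 1 gene of the glucocorticoid-responsive list was called. For HF vs control averaged over pregnancy 8 of 8 differences were positive, with a median of 0.32 against 0.04 over all probe sets tested, and Ddit4 was called (1.03, SE 0.23, limma adjusted p = 0.0365), as were 1.24% of all probe sets. In HF non pregnant vs control non pregnant mice the median was 0.56 against 0.01, and 0 of 8 were called by limma. There 2 of 8 were at an unadjusted limma p under 0.05, as were 17.7% of all probe sets. The part of either list in the clock differences was not tested.

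Cell type markers placed the 3 mice among the others in most lists. The mean log2 deviation of adipocyte markers was 0.13, 0.11 and 0.08 in them and from -0.85 to 0.67 in the others. That of B cell markers was -1.85, -0.61 and 0.07 within -2.39 to 2.21, and that of smooth muscle and pericyte markers 1.32, 0.80 and 1.08 against -2.29 to 1.19, the highest of all mice in control non pregnant mouse 1. Brown fat markers, at 0.23, 0.93 and 0.95, lay within -1.33 to 1.31. Of the listed brown fat markers, Ucp1 and Dio2 were above 100 on 0 arrays and Elovl3 on 1, so these were not tested. The median difference of the 3 genes tested was -0.86 for HF vs control averaged over pregnancy, where 3 of 3 were at an unadjusted limma p under 0.05 and Cidea, a lipid droplet protein, was the 1 called (-2.03, SE 0.41, limma adjusted p = 0.0249). Of all probe sets 29.6% reached such a p in that comparison and 1.24% were called. In HF non pregnant vs control non pregnant mice the median of the 3 genes was -0.79, with 0 of 3 called by limma and 2 at an unadjusted p under 0.05. There 17.7% of all probe sets reached such a p and 0% were called. The part of the brown fat markers in the diet differences of the clock genes was not tested. Control non pregnant mouse 4 was also high in pancreatic acinar markers, at 5.77, beside control pregnant mouse 2 at 6.07, and without these 2 mice the same 4 clock genes were called in the association with Bmal1.

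Lymphocyte markers varied between mice of the same group, and 5 clock genes moved with them, 1 of which, Nr1d1, was also called with Bmal1. With the mean log2 deviation of B and T cell markers in place of Bmal1 in the fit, 60.6% of 19788 probe sets were called, where 5 of the 10 clock genes were, so the clock genes were called no more often than the array as a whole. Cry2 fell by 0.23 per unit (SE 0.06, limma adjusted p = 0.00244), Per2 by 0.38 (SE 0.11, adjusted p = 0.00719), Per1 by 0.15 (SE 0.05, adjusted p = 0.0112), Clock by 0.15 (SE 0.05, adjusted p = 0.0125) and Nr1d1 by 0.27 (SE 0.10, adjusted p = 0.0245). Bmal1 (0.08, SE 0.12, adjusted p = 0.534) and Dbp (-0.25, SE 0.26, adjusted p = 0.417) were not called, nor were Per3, Tef and Cry1. With array weights none of the 10 was called.

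The lymphocyte markers did not pass the test for diet, though their values leaned to the HF non pregnant mice, in which Cry2 was lower on average. The median difference of the 5 B cell genes tested was 1.61 in HF non pregnant vs control non pregnant mice, and 0 of 5 were called by limma, 0 also at an unadjusted p under 0.05. The B and T cell score was highest in HF non pregnant mouse 5, at 1.85, which had the lowest Cry2 of all mice, 6.74, and lowest in control pregnant mouse 1, at -1.96, which had the highest, 8.23. The part of the lymphocyte markers in the diet difference of Cry2 was not tested, and with these markers as a covariate 0 of 10 clock genes were called in the 7 comparisons. In the association with Bmal1 the covariate gave 5 of 9, the same 4 and Clock.

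**Figure D5:**
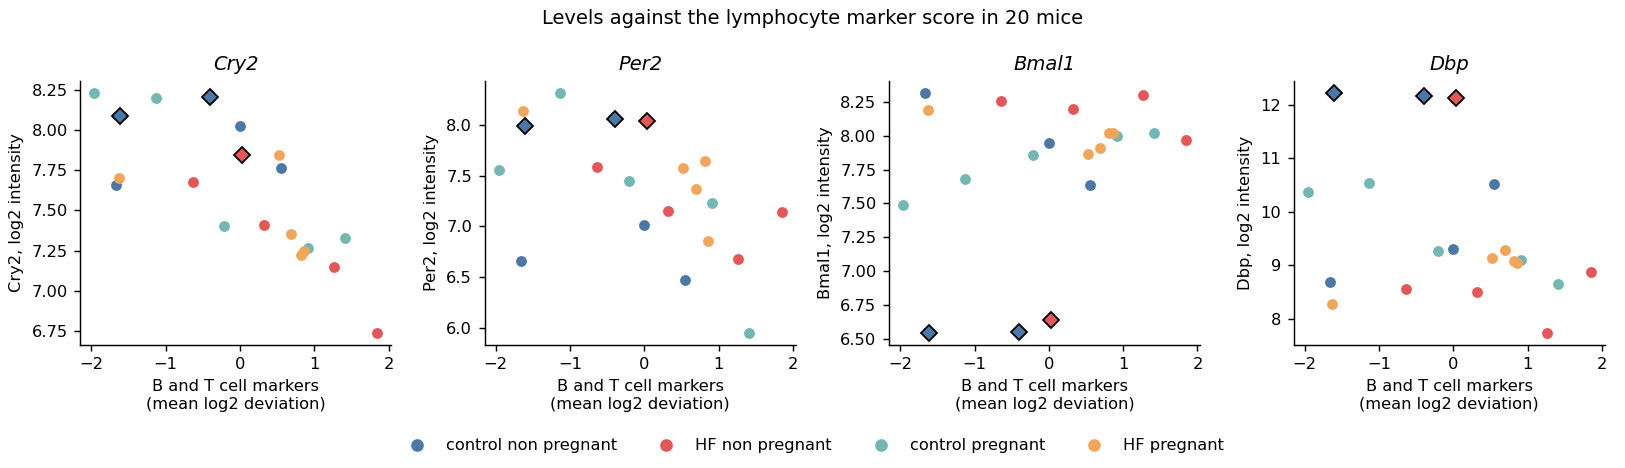
Log2 intensity of Cry2, Per2, Bmal1 and Dbp against the mean log2 deviation of B and T cell markers, 1 point a mouse, coloured by group; diamonds mark control non pregnant mice 1 and 4 and HF non pregnant mouse 4. Cry2 and Per2 fall from left to right (slopes of -0.23 and -0.38 within groups), and the diamonds of Bmal1 and Dbp lie apart from the other mice at scores of -1.61, -0.40 and 0.03.

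Leaving the 3 mice out gave no call of a clock gene between groups: 0 of 10 were called by limma in any of the 7 comparisons. Of the 19802 probe sets, 7 were called in HF pregnant vs HF non pregnant and 49 in HF pregnant vs control pregnant. For HF vs control averaged over pregnancy 334 were called, and 0 in the other comparisons. The standard errors became smaller in each comparison for Bmal1, Per3, Nr1d1, Dbp and Tef, as from 0.75 to 0.48 for Dbp in HF non pregnant vs control non pregnant, and larger in each for Per1 and Cry1. The difference of HF non pregnant from control non pregnant mice was then -1.09 for Dbp (SE 0.48, limma adjusted p = 0.306), -0.65 for Nr1d1 (SE 0.25, adjusted p = 0.306) and -0.57 for Per3 (SE 0.24, adjusted p = 0.306). It was -0.58 for Cry2 (SE 0.27, adjusted p = 0.312), -0.41 for Tef (SE 0.21, adjusted p = 0.324) and 0.21 for Bmal1 (SE 0.16, adjusted p = 0.418). With all mice Cry2 was at -0.59, Tef at -0.62 and Bmal1 at 0.47. Averaged over pregnancy the diet difference was -0.39 for Cry2 (SE 0.18, adjusted p = 0.165) and 0.22 for Cry1 (SE 0.12, adjusted p = 0.234).

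The difference of HF pregnant from HF non pregnant mice was 0.60 for Per3 (SE 0.21, limma adjusted p = 0.642) and 0.54 for Tef (SE 0.18, adjusted p = 0.584), against 0.13 and 0.17 with all mice. These gave the lowest unadjusted p-values of the 10 clock genes over the 4 comparisons of groups, 0.0140 and 0.00937 by limma. In that comparison 1202 of the 19802 probe sets reached an unadjusted limma p under 0.05. The 3 mice left out were the highest of all in Per3 and Tef. Leaving them out thus lowers the HF non pregnant mean and the SE by selection, and no conclusion is drawn from these p-values. The same difference for Dbp turned from -0.19 to 0.55 (SE 0.42, adjusted p = 0.934) and that for Per2 went from 0.20 to 0.38 (SE 0.36, adjusted p = 0.943). The difference of control pregnant from control non pregnant mice was -0.30 for Nr1d1 (SE 0.24, adjusted p = 0.9999), against -0.73 with all mice.

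The limma fit with array weights did change the calls between groups: 7 clock genes (Bmal1, Clock, Per3, Cry2, Nr1d1, Dbp and Tef) were then called in HF non pregnant vs control non pregnant, where 7489 of all 19802 probe sets were. In that fit HF non pregnant mouse 3 had a weight of 11.3 and control non pregnant mouse 4, one of the 3 mice, 4.45, and the other non pregnant mice at most 0.88.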

How the data were processed

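Total RNA of visceral fat was hybridized to Affymetrix Mouse Genome arrays, 1 array a mouse. The authors ran robust multi-array average (RMA) in the affy package (R 2.8.0 per the submitters' processing notes) and deposited the result as a linear intensity for each of 45101 probe sets a mouse. Array medians ran from 60.7 to 64.7. Intensities were used as deposited, on the log2 scale. RMA pools all arrays, so a level depends on the others normalized with it. Probe sets with an intensity over 100 on at least 5 of 20 arrays were kept, 19802 (43.9%), without 64 control probe sets, and all 10 clock genes passed. The number of arrays limits the precision, and p-values measure the spread between mice of the same group. The limma fit pools this spread over the 4 groups, so a comparison of the pregnant groups also carries the spread of the non pregnant groups. For Bmal1 in HF pregnant vs control pregnant the SE was 0.33 with all mice. It was 0.13 without the 3 non pregnant mice that stand apart, none of which is in that comparison.

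The 4 group means were fitted with limma 3.58.1 in R 4.3.3, with p-values adjusted by the Benjamini-Hochberg method across the kept probe sets. Permutation tests used scipy 1.17.1 and numpy 2.4.6 in Python. The score of a gene list in a mouse is the mean log2 deviation over genes above 100 on at least 1 array. Named genes were the 10 members, the called genes of the wider clock, immediate early and glucocorticoid-responsive lists with Nr1d2, Hlf, Nfil3, Npas2 and Ciart, and the 5 genes at each end of r with Bmal1. Cidea, called, Timeless, Usp2 and Bhlhe40, not called, and Ucp1, Dio2 and Elovl3, not tested, were named after their values were seen. The members, lists and tests were chosen with earlier results of these data known. The fits without the 3 mice and with lymphocyte markers as the variable of interest were added after the values were seen. The fit was tested on simulated data. Symbols came from the platform annotation and were matched to a RefSeq gene table.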

Additional observations from a re-analysis of the deposited data

Results flagged for a closer look

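In groups of 5 mice, a mouse was noted where its gap to the nearest of the others was over 0.71 of the range of the group, which chance gives in about 1 in 20 groups; 15 clock genes in 4 groups gave 60 groups, of which 7 had such a mouse. In 6 of these it was HF non pregnant mouse 4, which was lowest for Bmal1 (0.798 of the range) and highest for Per3 (0.801), Dbp (0.742), Tef (0.824), Hlf (0.840) and Ciart (0.728). These genes vary together, so the 6 are not independent. The seventh was HF pregnant mouse 5, lowest for Dbp at 8.28 (0.751 of the range), which also had the highest Bmal1 of its group, at 8.19. In the control non pregnant group, mice 1 and 4 lie close together, so neither has a gap of that size to its nearest neighbour.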

How the results depend on the processing

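The count of clock genes called between groups was 0 in all 7 comparisons without a filter, with a filter on the mean, with trend and robust moderation, with arrays centred or quantile normalized again, with the mean of a gene's probe sets, with lymphocyte markers as a covariate, without the 2 mice high in pancreatic markers and without each mouse in turn. Array weights gave 1 (Per1) in HF pregnant vs HF non pregnant, 7 in HF non pregnant vs control non pregnant and 7 for HF vs control averaged over pregnancy, where 2679, 7489 and 9136 probe sets were called in all; the cause was not tested.

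The association with Bmal1 gave 4 clock genes in these alternatives, array weights included, 5 with lymphocyte markers as a covariate, 3 to 4 without each mouse in turn, and 1 without the 3 mice that stand apart. Without these 3, the slopes were -1.08 for Per3, -0.58 for Nr1d1 and -0.85 for Tef, none past the threshold; fewer mice and a smaller range of Bmal1 enter that fit. Over all probe sets the association called 47, but 28 without control non pregnant mouse 1, 12 without HF non pregnant mouse 4, 30 without the 2 mice high in pancreatic markers, 72 without a filter, 104 with array weights, 168 with the lymphocyte covariate and 16 with the replicate block. The association with lymphocyte markers gave 5 clock genes, 4 to 7 without each mouse in turn, and 0 with array weights (7119 probe sets in all).

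Replicate numbers were not taken as pairs: over 30 such pairs the deviations from the group means correlated with a median r of -0.16 (lowest -0.75, highest 0.67). With the replicate block 0 clock genes were called between groups, 4 in the association with Bmal1, and 6 in that with lymphocyte markers. With 5 mice a group and this spread, the 95% interval for Dbp reached beyond 1 log2 unit in each of the 4 comparisons of groups.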

Other observations

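Usp2, an enzyme that removes ubiquitin and a known clock output, read 8.68, 9.11 and 9.15 in control non pregnant mice 1 and 4 and HF non pregnant mouse 4, and from 7.15 to 8.46 in the other 17 mice. Its slope on Bmal1 was -0.75 (SE 0.17, limma adjusted p = 0.110), and 0.005 (SE 0.50, adjusted p = 0.999) without these 3 mice. Per2 was lowest in control pregnant mouse 2, at 5.95, and highest in control pregnant mouse 3, at 8.32, so that its whole range over 20 mice lay within 1 group. Bhlhe40, a repressor that acts at E-boxes, differed by -0.61 (SE 0.26, limma adjusted p = 0.144) for HF vs control averaged over pregnancy.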
